A study of Drosophila melanogaster with 3 samples.

Results

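Oxidative phosphorylation genes are the nuclear genes for the enzyme complexes of the inner mitochondrial membrane that pass electrons to oxygen and make ATP. The 87 described here are those on the 6 nuclear arms of the fly genome, of 18164 annotated genes in all, with a symbol that begins with ND-, UQCR- or ATPsyn, that is COX followed by a number, or that is SdhA, SdhB, SdhC, SdhD or a paralogue of these. Sorted by the complex that the symbol names, 34 belong to complex I, 4 to complex II, 6 to complex III, 8 to complex IV and 11 to complex V, which makes 63. The other 24 are paralogues, gene copies that carry the name of such a subunit followed by L, with or without a number. ND-MNLL was kept with complex I, because its final letter is part of a name made of amino acid letters.

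Binding was read from ChIP-seq, the sequencing of DNA fragments that come down with a protein. The protein was CG31627 with GFP at its C-terminus, carried by a stable transgenic line and pulled down with an anti-GFP antibody from whole white prepupae, males and females pooled. All 3 libraries are biological replicates of this single group, and no other genotype, stage or treatment was compared. In whole animals, a peak in some tissues and a weaker peak in all of them cannot be told apart.

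Complex I takes electrons from NADH, complex II takes them from succinate, complex III hands them to cytochrome c and complex IV to oxygen, and all of these but complex II pump protons. Complex V, the ATP synthase, lets the protons flow back through a ring in the membrane and turns that flow into ATP. In Drosophila, many paralogues of these subunits are known as genes expressed mainly in the testis. The members below are genes of the nucleus, and the subunits encoded in mitochondrial DNA were not analysed here.

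A gene was called bound where the summit of a peak lay within 500 bp of any of its annotated transcription start sites, in the list of 7717 peaks that had passed the authors' test of the irreproducible discovery rate (IDR), a measure of agreement between replicates. By this call 27 of the 87 genes were bound, or 31%, while 22.3% of all 18164 genes and 26.4% of the 13945 protein-coding genes were bound in the same way. Without the paralogues the share was 26 of 63, or 41.3%, and among the paralogues it was 1 of 24, or 4.17%. Complex I had 12 bound genes of 34 (35.3%), complex II had 2 of 4 (50%), complex III had 2 of 6 (33.3%), complex IV had 5 of 8 (62.5%) and complex V had 5 of 11 (45.5%). Each complex thus lay above the share of all genes, and the paralogues lay below it, but with 4 to 8 genes in complexes II, III and IV a single gene moves the share by many points. These counts are given as descriptions, and no test was made of them.

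The sequences under some of the bound summits are shown here for later reference, in dm6 coordinates and on the strand of the gene. They cover up to 50 bases to either side of the summit, cut to the longest stretch with no annotated exon. ND-ASHI, ND-51, ND-SGDH and ND-MNLL stand for complex I, among them the peaks with motifs of interest, SdhC and UQCR-11 for complexes II and III, and COX5B, COX6B and COX8 for complex IV. ATPsynCF6 and ATPsynC stand for complex V. Capitals mark the DRE (TATCGATA), the BEAF core (CGATA), Ohler motif 7 and the NRG palindrome, on either strand; these motifs are described with their counts further on. The DRE contains the BEAF core.
ND-ASHI, chrX:6679326-6679426, minus strand: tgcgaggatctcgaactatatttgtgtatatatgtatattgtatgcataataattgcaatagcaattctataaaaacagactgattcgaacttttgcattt
ND-51, chr2L:6062821-6062921, minus strand: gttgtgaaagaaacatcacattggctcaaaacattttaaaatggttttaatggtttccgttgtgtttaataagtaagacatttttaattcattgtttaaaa
ND-SGDH, chr3L:12138594-12138694, minus strand: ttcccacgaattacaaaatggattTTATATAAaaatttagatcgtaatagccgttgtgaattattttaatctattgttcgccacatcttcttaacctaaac
ND-MNLL, chrX:7893799-7893894, minus strand: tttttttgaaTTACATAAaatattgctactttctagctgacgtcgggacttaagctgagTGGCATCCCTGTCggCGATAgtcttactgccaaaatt
SdhC, chr3R:11210077-11210177, minus strand: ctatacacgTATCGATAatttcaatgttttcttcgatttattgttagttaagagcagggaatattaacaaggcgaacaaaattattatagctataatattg
UQCR-11, chr3L:25120577-25120677, plus strand: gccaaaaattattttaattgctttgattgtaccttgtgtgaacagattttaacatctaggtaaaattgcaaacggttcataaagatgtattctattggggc
COX5B, chr2L:6557503-6557578, plus strand: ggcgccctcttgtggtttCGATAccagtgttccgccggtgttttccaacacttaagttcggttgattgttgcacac
COX6B, chrX:19744336-19744420, minus strand: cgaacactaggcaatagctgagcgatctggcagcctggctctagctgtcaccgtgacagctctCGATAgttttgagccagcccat
COX8, chr3L:21539474-21539574, minus strand: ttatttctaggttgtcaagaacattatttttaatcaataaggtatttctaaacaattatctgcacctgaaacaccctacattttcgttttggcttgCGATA
ATPsynCF6, chr3R:23356195-23356277, minus strand: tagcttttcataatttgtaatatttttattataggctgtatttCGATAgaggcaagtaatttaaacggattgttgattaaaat
ATPsynC, chr3R:31219683-31219783, minus strand: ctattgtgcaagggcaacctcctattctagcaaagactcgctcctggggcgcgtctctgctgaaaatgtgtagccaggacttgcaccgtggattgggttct

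In every library the paralogues lay below the share of all genes and complex IV had the highest share, while the order of the other complexes varied. Library lists hold background on purpose, so as many of each library's strongest peaks were taken as there are IDR-thresholded peaks. Of the 87 genes, 26, 26 and 30 had such a summit in replicates 1, 2 and 3, which is 31.4% ± 2.65 (SD, n = 3), beside 22.0% ± 1.35 of all genes (22.4%, 20.5% and 23.1% by library). Without the paralogues the counts were 25, 25 and 29 of 63, or 41.8% ± 3.67. The gap between this share and that of all genes was larger than the spread between libraries in either.

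By complex, the strongest peaks of replicates 1, 2 and 3 touched 12, 12 and 14 genes of complex I (37.3% ± 3.40, SD, n = 3). For complex IV the counts were 5, 5 and 5, and for complex V they were 4, 6 and 6 (48.5% ± 10.5). Complexes II and III each had 2, 1 and 2 genes. The paralogues had 1 in each library, the same share of 4.17% every time. Complexes I, IV and V were above the share of all genes in every library, whereas complex III fell to 16.7% in replicate 2, below the 20.5% of all genes there. Between complexes, the differences in share rest on few genes. Complex II (41.7% ± 14.4) differed from complexes III and V by no more than its spread between libraries. Complex III (27.8% ± 9.62) lay below complex V in every library, but in replicate 1 only by 33.3% against 36.4%. The gap between their means was larger than either SD. That SD is the spread between libraries and does not measure the uncertainty from so few genes, so the order is not settled.

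**Figure D1:**
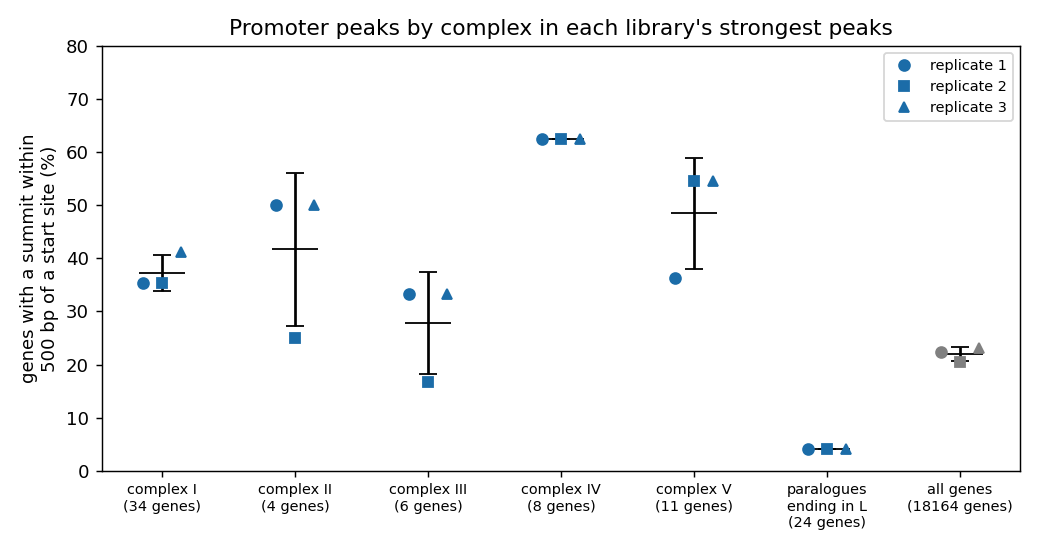
Percent of genes with a summit within 500 bp of a start site among each library's strongest peaks, for complexes I to V, the paralogues ending in L and all genes; points are the 3 libraries, horizontal bars their mean and whiskers the SD. Complex IV sits at 62.5% in all 3 libraries and the paralogues at 4.17%, to either side of all genes at 22.0%.

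Complex I has a hydrophilic arm, which takes up the electrons, and a membrane arm, which pumps protons. The catalytic core encoded in the nucleus has 7 members here, all in the hydrophilic arm, and 3 of them were bound. ND-51, which holds the flavin that accepts electrons from NADH, ranked 1156 by signal among the 7717 IDR-thresholded peaks, and 1234, 977 and 1241 in the lists of replicates 1, 2 and 3. ND-24, its partner with an iron-sulfur cluster, ranked 1472, and 1871, 1544 and 1056 in the libraries. ND-20, which holds the last iron-sulfur cluster before ubiquinone, ranked only 6959. It stood at 8018 in replicate 1 and 6818 in replicate 3, and replicate 2 had no summit nearer than 3122 bp. The ranks of ND-51 and ND-24 thus kept to a narrow range, while ND-20 was among the strongest peaks of 1 library only.

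The other 4 core genes, ND-75, ND-49, ND-30 and ND-23, were not bound. ND-49, which helps to form the ubiquinone site, had rank 7758 in the pooled list, close to ND-B17.2, the weakest bound member, with rank 7518. The libraries differed, however, as replicate 2 had no summit nearer to ND-49 than 25119 bp. ND-30 had rank 7883 in the pooled list, but 8586, 4325 and 19982 in replicates 1, 2 and 3. ND-23 had rank 8369 in the pooled list, and 9836, 13857 and 5647 in the libraries. ND-75, which carries several iron-sulfur clusters, had no summit within 500 bp in any library. Its nearest IDR-thresholded summit was 753 bp away.

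Among the accessory subunits of complex I, which surround the core, 9 of 27 were bound, and they held the strongest peaks of the whole set. ND-MWFE, a small subunit of the membrane arm, had the strongest of all, with rank 229 in the IDR-thresholded list and 296, 180 and 256 in replicates 1, 2 and 3. Its peak covers 2R from 13158301 to 13158705 (dm6), with the summit 156 bp upstream of ND-MWFE and in an annotated intron of TppII. The start site of TppII, the gene of a large peptidase, was nearer, at 65 bp. ND-ASHI, also of the membrane arm, ranked 374, and 349, 551 and 308 in the libraries. Its strongest summit lay 258 bp upstream of ND-ASHI and 264 bp from the start of Fum1, the gene of the Krebs cycle enzyme fumarase, and it fell in an annotated intron of Fum1. A second, weaker summit of the list lay 19 bp from a start site of ND-ASHI.

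ND-42, of the membrane arm, ranked 1109, with 1198, 816 and 1423 in replicates 1, 2 and 3, and its summit lay 305 bp upstream, in a 5′ UTR of Cchl, the gene of a haem lyase for cytochrome c. ND-SGDH, another membrane arm subunit, ranked 1247, with 1314, 1354 and 1084. ND-B17 ranked 3540, with 4483, 4087 and 3061. These 3 genes were among the strongest peaks of every library. ND-MNLL ranked 3837 (4002, 4650 and 3542 in the libraries) and shares its start site region with CG45089, at the same distance of 46 bp. ND-B22 ranked 4244 (3927, 5382 and 4258), with the summit 16 bp upstream of its nearest start site, the shortest distance of any bound member. That start site is an internal one, and the summit fell in an annotated 5′ UTR of ND-B22.

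Weaker peaks lay at ND-13B and ND-B17.2, both subunits of the hydrophilic arm. ND-13B ranked 7190, with 6951, 8408 and 6080 in replicates 1, 2 and 3. ND-B17.2 ranked 7518, with 8131, 7082 and 7263, and lay 35 bp downstream of its start site. Each was among the strongest peaks of 2 libraries and outside them in the other. The accessory genes not bound were ND-13A, ND-15, ND-18, ND-19, ND-39, ND-ACP, ND-AGGG, ND-B12, ND-B14, ND-B14.5A, ND-B14.5B, ND-B14.7, ND-B15, ND-B16.6, ND-B18, ND-B8, ND-MLRQ and ND-PDSW. ND-ACP, the acyl carrier protein of mitochondria, had its nearest IDR-thresholded summit at 720 bp.

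**Figure D2:**
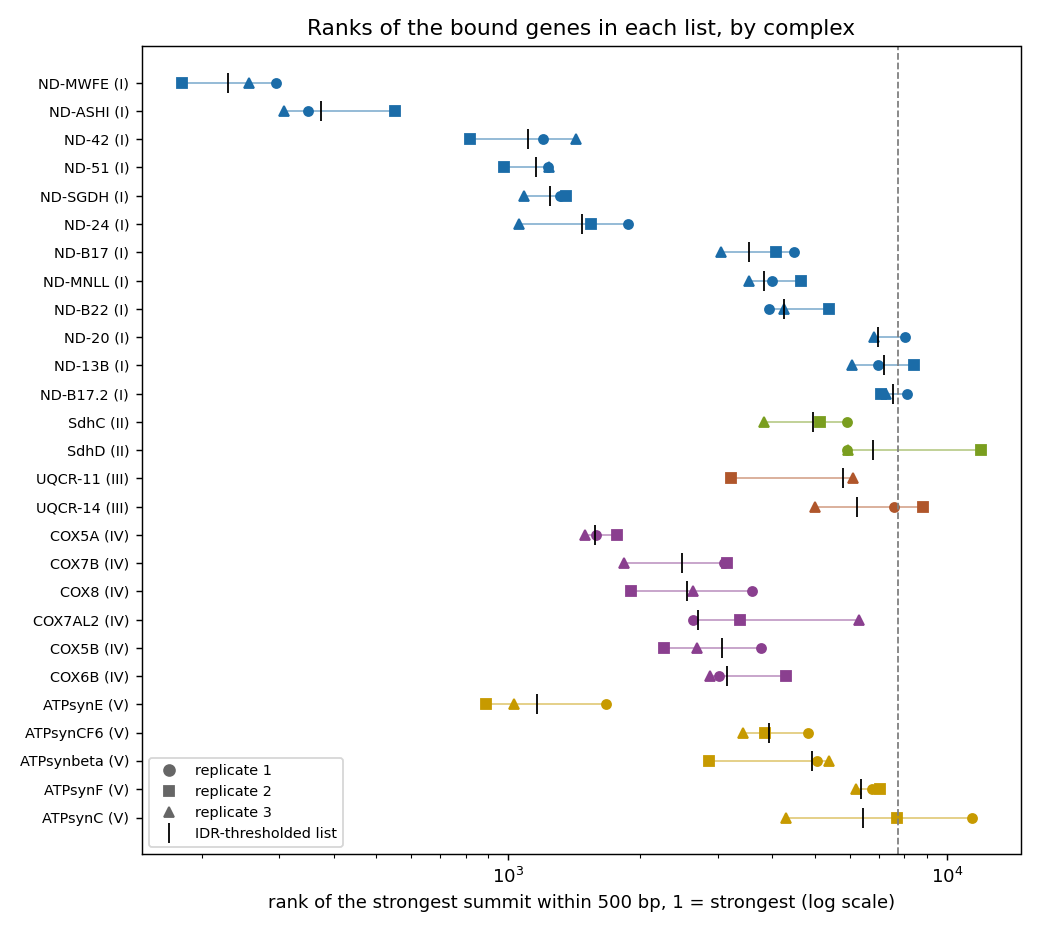
Rank by signal of the strongest summit within 500 bp of each of the 27 bound genes, on a log scale with 1 the strongest; symbols are the 3 libraries, black ticks the IDR-thresholded list, colours the complexes (in brackets after the gene), and the dashed line the number of IDR-thresholded peaks, 7717. ND-MWFE and ND-ASHI lead in every list, complex IV with its paralogue COX7AL2 lies between 1575 and 3156 in the IDR-thresholded list, and the genes of complexes II and III lie at 4945 and beyond there.

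In complex II, succinate dehydrogenase, the bound genes were the membrane anchors and the unbound ones the catalytic subunits. SdhC ranked 4945, with 5913, 5128 and 3831 in replicates 1, 2 and 3, and its summit was 278 bp upstream of SdhC but only 120 bp from Tctp. In the single libraries the summit moved, to 170, 280 and 90 bp upstream of SdhC. SdhD ranked 6788, with 5921 and 5965 in replicates 1 and 3 but 11934 in replicate 2. SdhA, the flavin subunit, had its nearest IDR-thresholded summit at 965 bp, and SdhB, the iron-sulfur subunit, ranked 13650 in the pooled list. Both bound genes were thus in the weaker part of the list, and SdhD was outside the strongest peaks of replicate 2. Where a peak had to match the strongest peaks of both other libraries within 100 bp, 1 gene was left without replicate 1, 1 without replicate 2 and 0 without replicate 3.

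In complex III, the cytochrome bc1 complex, UQCR-11 and UQCR-14, both small subunits, were bound. UQCR-11 ranked 5786, with 3226 in replicate 2 and 6098 in replicate 3, and in replicate 1 the nearest summit was 683 bp from its start site. UQCR-14 ranked 6232, with 7562, 8810 and 4993 in the libraries, and its summit fell in an annotated 3′ UTR of the neighbouring gene CG32576, 49 bp upstream of UQCR-14. Neither was among the strongest peaks of all 3 libraries, and the match to both other libraries left 1, 1 and 0 genes without replicates 1, 2 and 3. The large structural subunits UQCR-C1 and UQCR-C2 and the small subunits UQCR-Q and UQCR-6.4 were not bound, though UQCR-C2 had rank 8991 in the pooled list.

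Complex IV, cytochrome c oxidase, had the highest share of bound genes of the complexes. Its nuclear subunits surround a catalytic core that mitochondrial DNA encodes. COX5A ranked 1575, with 1581, 1765 and 1497 in replicates 1, 2 and 3. COX7B ranked 2490, with 3102, 3152 and 1837, and COX8 ranked 2557, with 3594, 1909 and 2637. COX5B ranked 3078 (3773, 2270 and 2694), and COX6B ranked 3156 (3024, 4293 and 2883). All 5 were among the strongest peaks of every library and among the 3858 strongest IDR-thresholded peaks. COX4, COX7A and COX7C were not bound, and of these COX4 was listed in replicate 3 alone, at rank 25292.

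In complex V, 3 of the 4 subunits of the membrane part were bound. ATPsynE, which helps to join ATP synthases in pairs, ranked 1165, with 1667, 889 and 1029 in replicates 1, 2 and 3, and its summit fell in its own 5′ UTR, 34 bp downstream of the start site. ATPsynF ranked 6374, with 6751, 7043 and 6215. ATPsynC, the subunit of the rotating ring, ranked 6451, with 11419, 7696 and 4296. The first and the second were among the strongest peaks of all libraries, and ATPsynC fell outside them in replicate 1. ATPsynG, the other subunit of the membrane part, was listed in every library, at ranks from 14315 to 19833.

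Of the catalytic head and central stalk of the ATP synthase, 1 of 3 genes was bound, and of the peripheral stalk 1 of 4. ATPsynbeta, the catalytic subunit, ranked 4921, with 5044, 2871 and 5389 in replicates 1, 2 and 3. Its summit lay 425 bp upstream, in an intron of CG11076 and 84 bp from that gene's start site. In replicates 1 and 3 the strongest summit was at 103 and 117 bp upstream of ATPsynbeta, and in replicate 2 at 445 bp. ATPsynCF6, coupling factor 6 of the peripheral stalk, ranked 3926, with 4821, 3841 and 3427, and its summit was 33 bp from the start of Sec13. The unbound genes were ATPsynB, ATPsynD, ATPsynG, ATPsynO, ATPsyndelta and ATPsyngamma, and ATPsyngamma, the rotor shaft, came closest, with pooled rank 7805. Of the 5 bound genes of complex V, 3 were left by the match without replicate 2.

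Across complexes, 20 of the 27 bound genes were among the strongest peaks of all 3 libraries, 6 of 2 libraries and 1 of a single library. That is 20 of 87 members in all 3 libraries, or 23.0%, beside 17.4% of all genes. The median rank of the bound members was 3540, against 3078 for all bound genes, and 15 of the 27 (55.6%) were among the 3858 strongest peaks, against 59.0% of all bound genes. The peaks at these genes were thus no stronger in rank than peaks at bound genes in general. Of the 15, 8 were of complex I, 5 of complex IV and 1 of complex V, and the last was the paralogue COX7AL2, which left none of complexes II and III.

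The paralogues were set apart from the other members in every list. COX7AL2, the single bound paralogue, ranked 2705, and 2630, 3372 and 6290 in replicates 1, 2 and 3. Its summit was 488 bp downstream of the nearest start site, in an annotated 5′ UTR of COX7AL2, the largest distance of any bound member, and COX7A, the gene it is named after, was not bound. The 24 paralogues are named after 21 distinct genes, of which 11 were bound. ND-24L, ND-20L, SdhCL, UQCR-11L, COX5BL, ATPsynCF6L and ATPsynbetaL had no summit within 500 bp in any library, though the gene each is named after was bound. ND-51L2 was listed in replicate 2 alone, at rank 14331, and ND-51L1 in none.

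Whole library lists, background included, gave the same contrast. Of the 63 other members, 56, 36 and 49 had a listed summit within 500 bp in replicates 1, 2 and 3, while 3, 4 and 5 of the 24 paralogues had one, beside 47.5%, 37.7% and 43.5% of all genes. All 3 libraries listed 34 of the 87 members, or 39.1%, against 27.9% of all genes, and COX7AL2 was the only paralogue among them. In no library at all were 15 of the 24 paralogues and 3 of the other 63, which are ND-75, ND-B14.7 and ATPsyndelta, beside 40.4% of all genes and 35.4% of protein-coding genes. The unbound paralogues lay a median of 12950 bp from the nearest IDR-thresholded summit, with a range of 1903 to 127372 bp, and the 37 other unbound members a median of 3942 bp.

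Repeated sequence can hide peaks at gene copies, so stretches of 31 bases around each start site were looked up in the whole genome. The lowest share of stretches found at no second place was 98.6% among the paralogues. Of all members, 86 of 87 had at least 80% unique stretches, and the exception was ND-AGGG, at 61.5%, which is not a paralogue. The low count of bound paralogues was measured at start sites where nearly all stretches of this length are unique. The settings of the aligner are not known, so whether repeated sequence hid peaks in these libraries was not tested.

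**Figure D3:**
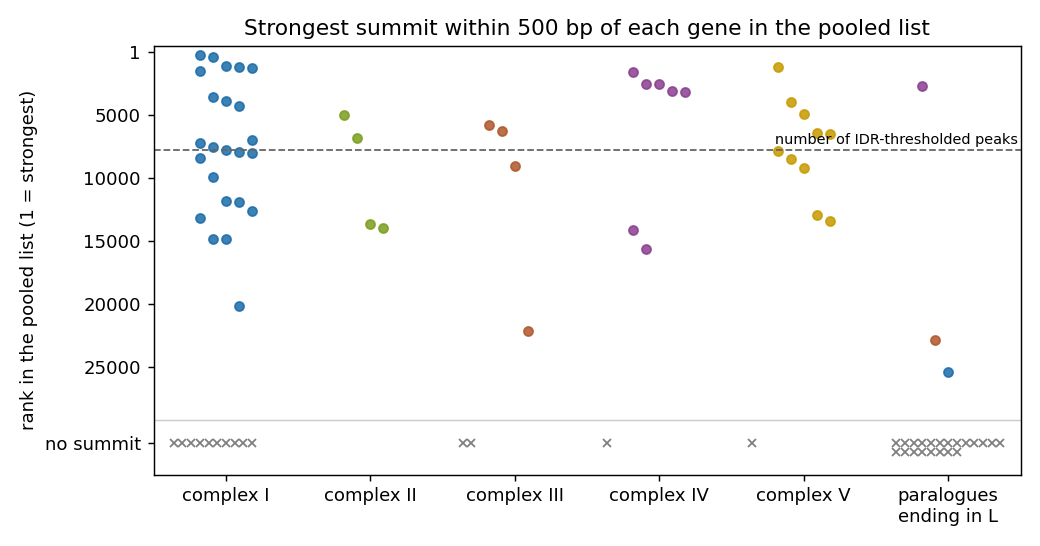
Rank in the pooled list of the strongest summit within 500 bp of each of the 87 genes, by complex and for the paralogues (coloured by their complex); grey crosses are genes with no such summit, and the dashed line marks 7717, the number of IDR-thresholded peaks. Of the 37 other unbound members 23 lie below the line with ranks from 7758 to 22087, while 21 of the 24 paralogues have no summit.

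Below the threshold, further members had a summit in the pooled list. There, 52 of the 87 genes (59.8%) had one within 500 bp, beside 43.4% of all genes. With a q value of 0.05 or less there were 40 (46.0%), beside 31.3% of all genes. Leaving the paralogues aside, 23 of 37 unbound members (62.2%) had a pooled summit, beside 30.0% of unbound protein-coding genes. At a rank up to 10000 there were 9 (24.3%), beside 6.63%, and 34 (91.9%) were listed in at least 1 library, beside 51.9%. Of the 23 unbound paralogues 2 had a pooled summit, none of them at a rank up to 10000, and 8 (34.8%) were listed in at least 1 library. A pooled summit with a q value of 0.05 or less was at 13 of the 37 other unbound members and at no unbound paralogue. Of all 18164 genes, 5690 had a pooled summit at this q value and 4048 were bound. The share of unbound genes by this call was not counted separately, so the 13 are a list only. They were ATPsynB, ATPsynD, ATPsynG, ATPsyngamma, ND-18, ND-23, ND-30, ND-39, ND-49, ND-AGGG, ND-B15, ND-MLRQ and UQCR-C2. None of the 37 was among the strongest peaks of all 3 libraries. ND-AGGG was among those of 2 libraries, with ranks 10939, 6977 and 7313, and 7 were among those of 1. For these too the share of unbound genes was not counted.

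Summits at bound members lay close to the gene's nearest start site and mostly upstream of it. The median distance was 89 bp, against 145 bp for all bound genes. Within 100 bp there were 14 of 27 (51.9%), against 32.5% of all bound genes, and within 200 bp 21 (77.8%), against 65.1%. Upstream of the nearest start site lay 24 of 27 (88.9%), against 86.5%. The exceptions were ATPsynE, ND-B17.2 and COX7AL2. At ND-24, COX5A and ND-B22 the nearest start site is an internal one. Their summits lay upstream of it but inside the gene itself, downstream of its 5′ end. By annotation, 16 summits were intergenic, 6 in an intron, 4 in a 5′ UTR and 1 in a 3′ UTR. Peak widths ran from 142 to 405 bp, with a median of 393 bp against 404 bp over the list.

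**Figure D4:**
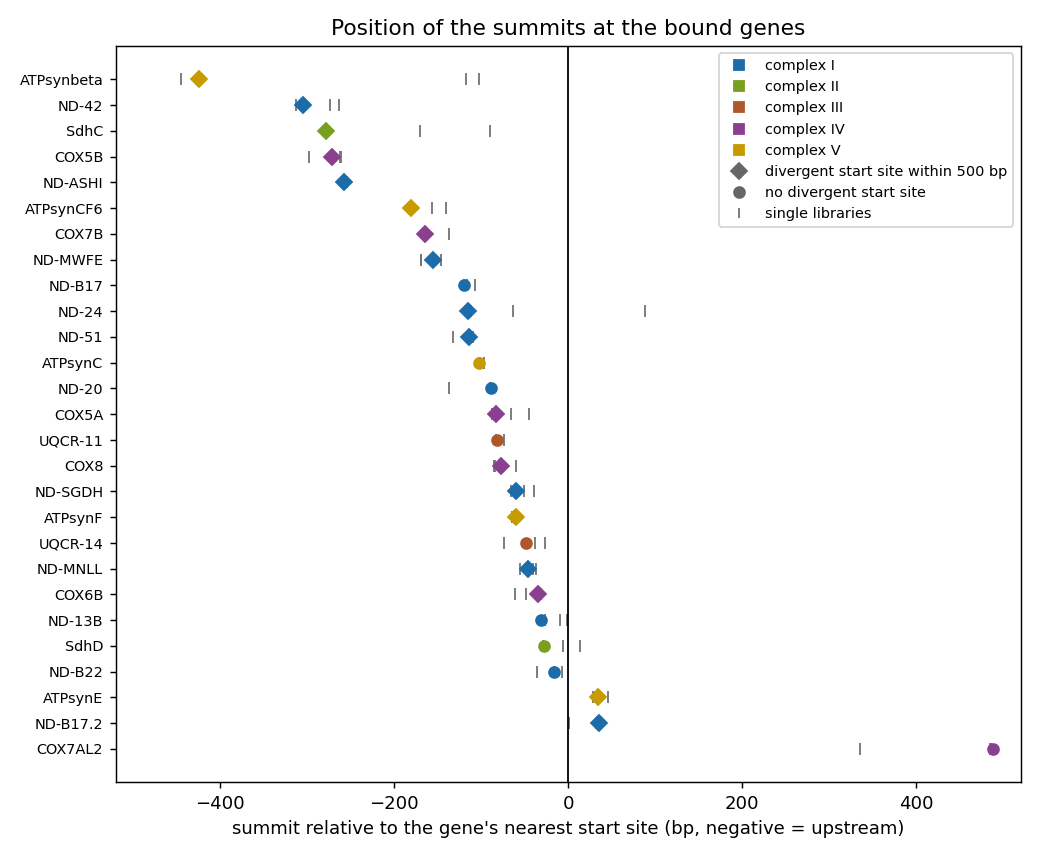
Distance of the IDR-thresholded summit from the nearest start site of each of the 27 bound genes, in bp with upstream negative; colours are complexes, diamonds are genes with a start site of another protein-coding gene within 500 bp upstream on the opposite strand, circles are the others, and grey ticks are the strongest summits in single libraries. All but 3 genes lie to the left of 0, and the genes with the farthest upstream summits, from ATPsynbeta at 425 bp down to ND-MWFE at 156 bp, are all diamonds.

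Most of these peaks also served as promoter peaks of a neighbour. At 18 of 27 genes (66.7%) the summit was also within 500 bp of another protein-coding gene, against 57.3% of the 3681 bound protein-coding genes. Distances are from the strongest summit of each gene. By these the start site of the other gene was strictly nearer at 7, which are ND-MWFE (TppII), ND-42 (Cchl, 76 bp), SdhC (Tctp), COX7B (Sec3, 95 bp), COX5B (IFT52, 26 bp), ATPsynCF6 (Sec13) and ATPsynbeta (CG11076). At ND-51 the neighbour CG13994 was nearly as close, 118 bp against 114 bp. COX5A shared its peak with glo, at 96 bp against 83 bp, and ATPsynF shared its peak with CG3548, at 66 bp against 60 bp. ND-42 also had a second, weaker summit, 103 bp from its start site. A peak list cannot tell which of such genes, if either, the protein acts on. ND-13B, ND-20, ND-B22, SdhD, UQCR-11, UQCR-14 and COX7AL2 had no start site of another gene within 500 bp of the summit, although the summit of UQCR-14 lies inside CG32576.

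Counts were also made by the arrangement of start sites. A member was called divergent where another protein-coding gene starts within 500 bp upstream on the opposite strand. This held for 36 of the 63 members other than paralogues, beside 3815 of the 13945 protein-coding genes. Of these 36, 18 were bound, or 50%, almost the same as the 51.0% of all divergent protein-coding genes. Of the 27 that are not divergent, 8 were bound, or 29.6%, beside 17.1% of all such protein-coding genes. In complex IV the bound genes COX5A, COX5B, COX6B, COX7B and COX8 are all divergent, as is the unbound COX7A. COX4 and COX7C, also unbound, are not divergent. The high share of complex IV thus rests on divergent genes, a class bound at 51.0% among protein-coding genes. Among the paralogues only 3 of 24 are divergent, and none of them was bound. Of the 21 that are not divergent 1 was bound, or 4.76%, beside the same 17.1%. The share of bound divergent members was thus at the background, and the arrangement of start sites differs between the complexes' genes and the paralogues.

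Motifs were counted on either strand in the reference genome, from 250 bp before to 50 bp after the start site. The DRE, the site of the factor Dref, was present at 2 of 26 bound members other than COX7AL2 (7.69%). It was at 7 of 37 unbound members (18.9%) and at no paralogue. The shares were 9.37% of protein-coding genes and 14.6% of the bound ones. The BEAF core, the short site of the boundary protein BEAF-32, was at 17 bound (65.4%) and 19 unbound members (51.4%) and 10 paralogues. It was at 47.4% of protein-coding genes and 56.4% of the bound ones. Ohler motif 1, a core promoter motif of broadly expressed genes, was at 13 of the 63 (20.6%), namely 6 bound and 7 unbound members, against 4.50% of protein-coding genes and 6.71% of the bound ones. Bound and unbound members thus carried it alike in count, and no paralogue did.

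Ohler motif 6 was at 1 bound and 5 unbound members, against 2.23% of protein-coding genes and 2.93% of the bound ones. Ohler motif 7 was at 6 bound and 5 unbound members, which is 17.5% of the 63, against 9.29% of protein-coding genes and 18.7% of the bound ones. The NRG palindrome, described as an element of nuclear respiratory genes in Drosophila, was searched as TTACGTAA, TTACATAA, TTATGTAA and TTATATAA. It was at 3 bound and 2 unbound members and no paralogue, against 5.18% of protein-coding genes and 6.06% of the bound ones. The E-box CACGTG was at no bound member, 2 unbound members and 2 paralogues, against 4.23% and 4.73%. TATAAA was at 15 bound members, 24 unbound members and 9 paralogues, against 45.8% and 45.7%.

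Within 50 bp of the summits themselves motifs were few. The BEAF core was at 10 of 27 summits (37.0%), against 22.6% of the 3223 promoter summits of the list. The stretches of COX5B, COX6B, COX8 and ATPsynCF6 shown above hold it. The DRE was at 2 summits, those of SdhC and UQCR-14 (7.41%, against 3.69%), and the NRG palindrome at 2, those of ND-SGDH and ND-MNLL (7.41%, against 2.05%). Ohler motif 7 was at 2 (against 5.28%), Ohler motif 6 at 1, and Ohler motif 1 and the E-box at none. ND-MNLL held Ohler motif 7, the NRG palindrome and the BEAF core side by side, while ND-ASHI and ND-51, with stronger peaks, held none of the marked motifs. The share of A and T within 50 bp was 66.3% in the median, from 44.6% to 81.2%, against 65.3% for all promoter summits.

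Other genes of the pathway that the symbols leave out were bound at shares near 40%, beside 22.3% of all genes and 26.4% of protein-coding genes. Of all 53 genes in 4 such lists 22 were bound, namely 12 of the 23 divergent ones (52.2%, beside 51.0%) and 10 of the other 30 (33.3%, beside 17.1%). Of the other chain and ATP synthase genes 4 of 10 were bound. Cyt-c-d, a cytochrome c, ranked 399 in the IDR-thresholded list, with its summit 392 bp downstream of its start site and 158 bp from CG31808. Cyt-c-p, the other cytochrome c gene of this list, was not bound. It had ranks 9310 and 9507 in replicates 1 and 3 and no summit within 500 bp in replicate 2. The alpha subunit gene of the ATP synthase, blw, ranked 715, with 919, 714 and 566 in replicates 1, 2 and 3, a stronger peak than that of its partner ATPsynbeta. The cytochrome c oxidase subunit genes levy and cype ranked 2216 and 5886, but both summits were nearer to another gene. That of levy was 174 bp from levy and 77 bp from wmd. That of cype was 434 bp from cype and 110 bp from Ncoa6. Together with the 5 of 8 above, 7 genes of that complex were bound without paralogues. Among them COX5B and COX7B also had another start site nearer to the summit.

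Assembly factors were looked up by 31 symbols, some of them spellings of the same gene; 13 found no gene in the annotation, and the rest gave 14 genes. Of these 6 were bound, with CIA30, a chaperone of complex I, at rank 62 and at 63, 61 and 65 in the libraries. Its summit was 112 bp upstream of CIA30 and 108 bp from CG7601. Cox17, the copper carrier for complex IV, ranked 1461, and Coa8, Coa7, Ccdc56 and Nubpl lay between 4543 and 6410. CIA30 had a stronger peak than any subunit gene. Scox, Surf1, Cox10 and Cox11, also assembly factors of complex IV, were not bound.

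Of 12 regulators 5 were bound, namely ERR at rank 372, cnc at 713, Dref at 1732, mtTFB1 at 6299 and PolrMT at 6759. ERR is the estrogen-related receptor, a factor known to drive metabolic genes, and its summit was nearer to Atg18a, at 37 bp, than to ERR, at 223 bp. The peak of mtTFB1 is the same as that of Ccdc56. TFAM, ewg and Ets97D were not bound. Of 17 enzyme genes of the Krebs cycle 7 were bound, with Fum1 at rank 374, which is the peak of ND-ASHI, mAcon1 at 438 and Idh3g at 637. All 3 subunit genes of the NAD-dependent isocitrate dehydrogenase were bound, with Idh3b at 3620 and Idh3a at 5232. The summits at Coa7, Ccdc56, mtTFB1, PolrMT, mAcon1 and Idh3a were nearer to a start site of another gene.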

How the data were processed

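ChIP-seq peak lists of 3 libraries of 1 group were used. The authors deposited each list as narrowPeak on dm6: a list per library, a pooled list and an IDR-thresholded list. The signal value of a peak is as the authors deposited it, on a scale that no source states, and served only to rank peaks within a list. The q value is deposited as −log10 q. Control data were not analysed here. For the aligner and the peak caller, names and settings were not given in the sources used here. No file holds reads or coverage, so the depth is unknown and no counting interval could be computed. Nothing in the labels places libraries in batches. Lists on dm3 were not used, and 1 peak on chromosome Y was left out.

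Summits were compared with start sites of Ensembl release 115, and sequences were read from the Release 6 genome, whose arms have the lengths of dm6. Python 3.11.15, NumPy 2.4.6 and pandas 2.3.3 were used. The window step was tested on simulated data. Counts stand beside the share of all genes called in the same way, with no test. Every member could be named, and of the neighbours sharing a summit the gene with the nearest start site. The members and lists were chosen with earlier results of these data known. Alternatives were other windows, fewer peaks, other assignment rules, the pooled list, another background and leaving out replicates.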

Additional observations from a re-analysis of the deposited data

How the results depend on the processing

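The number of bound members was 27 as reported. It was 23 within 250 bp (26.4%, beside 17.3% of all genes) and 30 within 1000 bp (34.5%, beside 27.0%). It was 21 where a summit counted only for the nearest start site (24.1%, beside 16.3%) and 22 where the peak had to cover a start site (25.3%, beside 13.1%). The 5′ end of each gene alone gave 27 (beside 20.4%), and so did members with at least 80% unique 31-mers, an alternative chosen after seeing the data. The 3858 strongest peaks gave 15 (17.2%, beside 13.1%), and the pooled list with a q value of 0.05 or less gave 40 (46.0%, beside 31.3%). Leaving out 1 replicate each gave 19 to 22, from peaks matched in both other libraries, and the lowest, without replicate 3, was 21.8% beside 17.5%. Peaks were not called anew without the library left out. These settings only lost genes and gained 0, so they read as a stricter filter. The excess over the background, 8.75 percentage points, was 4.64 against protein-coding genes.

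The 3858 strongest peaks gave 0 genes of complex II, 0 of complex III and 1 of complex V. The nearest start site alone gave 1, 3 and 3 for complexes II, IV and V. Coverage of a start site gave 1 for complex II, 3 for complex IV and 0 for the paralogues, and 250 bp gave 1 for complex II and 0 for the paralogues. The pooled list gave 20 for complex I and 9 for complex V. Leaving out 1 replicate gave 0 to 1 for complexes II and III and 3 to 4 for complex V; without replicate 3, no gene of complex II or III remained.

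With library peaks of q 0.05 or less, the mean share over libraries moved to 44.4% for all members. It was 53.9%, 58.3%, 38.9%, 75.0% and 75.8% for complexes I to V and 5.56% for the paralogues. The share of all genes moved as well, from 22.0% ± 1.35 in the strongest peaks to 29.7% ± 8.26 (SD, n = 3). The SD at this q value was 14.5 for all members and 20.0 for complex I. With 250 bp the mean share was 27.2% for all members, 50% for complex IV and 0% for the paralogues. With 1000 bp it was 34.9%, 43.1% and 58.3% for all members, complex I and complex II. For these windows the share of all genes in the libraries was not counted. The cause was not tested; a shorter or longer list or window changes each count by its construction. No paired analysis was possible because the design has 1 group.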
